A study of Mus musculus with 6 samples.

Results

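The blood-testis barrier junction genes followed here are Cldn3, Cldn11, Ocln, Tjp1, F11r, Gja1, Cdh2, Nectin2 and Espn, 9 of the 50763 gene symbols in the deposited count table, found by exact symbol. They were measured by RNA sequencing of poly(A) RNA from whole testes of mice at postnatal day 14. The 3 control samples were labelled wild type (WT), and the 3 others carried the genotype labelled sKO, in which, going by the title of the series, Rif1 is knocked out conditionally in germ cells before meiosis. The labels give no strain, Cre driver, litter or batch. Nor do they tie each sample to an animal of its own; p-values therefore reflect the spread among these samples alone, and it may be technical.

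Sertoli cells, the somatic nurse cells of the seminiferous tubule, join each other near the tubule base in a belt that combines tight junctions, gap junctions and an actin-rich adhesion called the ectoplasmic specialization. This belt, the blood-testis barrier, divides spermatogonia from meiotic and later germ cells. It is assembled in juvenile mice around the time when the first wave of spermatocytes advances through meiotic prophase. Claudins and occludin are the membrane-spanning proteins of the tight junction, and scaffold proteins of the zonula occludens family tie them to actin.

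Total counts per library ran from 15941672 to 18296594. A count of 0 allows up to 0.165 to 0.187 CPM (counts divided by the scaled library size), the level that 3 counts would give; such limits cover counting error alone. The knockout target Rif1 stood at 103 ± 23.3 CPM in the WT and 45.8 ± 3.62 CPM in the sKO libraries (SD, n = 3 each). The summed level of 23 Sertoli cell markers was 7253 to 8252 CPM in WT and 8641 to 10226 CPM in sKO. That of 15 spermatocyte markers was 2212 to 3627 CPM in WT, highest in library 1, and 1231 to 2009 CPM in sKO. Fewer cells of a type and less RNA per cell cannot be told apart in such bulk samples. sKO library 1 stood apart in transcripts of duct epithelium: the sum of 14 such markers was 301 CPM there, against 79.5 to 92.3 CPM in WT and 80.4 and 93.4 CPM in the other sKO libraries. Most of the sum elsewhere was Epcam, which testis cells also express. The defining duct marker Crisp1 was at a count of 0 in sKO library 3.

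Promoter windows, from 250 bases before to 50 bases after a gene's start, were taken from RefSeq (GRCm38.p6) for 8 of the 9 genes. No window of Cdh2 was used. The windows of Cldn11, the most abundant of the 9 genes, of Cldn3, whose level stood out in a single library, and of Gja1, the gap junction gene, are shown because the values below turn on these genes. All 3 are on the plus strand, at chr3:31149670-31149969, chr5:134985964-134986263 and chr10:56377050-56377349, and run 5′ to 3′ with motif matches in capitals.
Cldn11: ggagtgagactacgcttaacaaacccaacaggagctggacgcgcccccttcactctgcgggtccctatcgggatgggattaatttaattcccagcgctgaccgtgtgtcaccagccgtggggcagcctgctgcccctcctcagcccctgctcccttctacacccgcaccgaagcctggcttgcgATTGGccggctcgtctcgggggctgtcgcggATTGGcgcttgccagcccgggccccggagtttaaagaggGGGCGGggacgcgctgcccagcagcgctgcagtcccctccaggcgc
Cldn3: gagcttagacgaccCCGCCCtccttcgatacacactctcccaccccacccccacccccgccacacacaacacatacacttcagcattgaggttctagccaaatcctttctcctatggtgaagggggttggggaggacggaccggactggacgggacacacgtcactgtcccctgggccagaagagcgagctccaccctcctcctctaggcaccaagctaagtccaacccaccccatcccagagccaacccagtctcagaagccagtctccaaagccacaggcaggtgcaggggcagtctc
Gja1: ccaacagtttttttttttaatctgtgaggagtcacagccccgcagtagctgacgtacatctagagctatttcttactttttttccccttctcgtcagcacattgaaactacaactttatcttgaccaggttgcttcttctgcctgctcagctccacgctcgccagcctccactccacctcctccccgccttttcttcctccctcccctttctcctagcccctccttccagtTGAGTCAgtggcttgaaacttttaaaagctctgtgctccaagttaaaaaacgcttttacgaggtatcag
The capitals in the Cldn11 window mark 2 matches to CCAAT on the opposite strand and 1 to GGGCGG, the GC box. The Cldn3 window holds 1 GC box on the opposite strand, and the Gja1 window holds 1 match to TGANTCA, the palindromic letters of an AP-1 site. Letters were searched on both strands, and matches to different motifs did not overlap in these 3 windows. GGGCGG was found for 7 of the 8 genes, all but Gja1, and in 35.7% of the 32851 promoter windows in the table. CCAAT was found for 4 of the 8 genes and in 37.4% of windows, and TGANTCA for F11r and Gja1 and in 7.81% of windows. TGACGTCA, the cyclic AMP response element, was found for Nectin2 and in 1.79% of windows. The TATA box letters TATAAA were in 0 of the 8 genes' windows and in 13.6% of all windows. The GATA factor letters GATAAG were likewise in 0 of the 8 and in 7.44% of all windows. An androgen response half-site, searched as AGAACA, was in 0 of the 8 and in 19% of all windows. A match is a string of letters and not a measured site. Ocln and Espn were searched at each of their listed starts, so the 8 genes had 11 windows. A gene was counted if any of its windows matched, while the percentages count single windows, so the 2 are not on the same footing.

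Junction genes were compared between sKO and WT to ask whether barrier transcripts differ when germ cells lack Rif1. All 9 genes were abundant enough to be tested. edgeR's quasi-likelihood test with Benjamini-Hochberg adjustment over 18860 genes called 0 of the 9 at an adjusted p under 0.05, against 0.0318% of tested genes called higher and 1.27% called lower. The smallest adjusted p was 0.203, for F11r. At an unadjusted p under 0.05, edgeR gave 4 of the 9, all with higher estimates, where 5.06% of tested genes were higher and 8.54% lower by that measure. Neither DESeq2 nor limma-voom called any of the 9, and they gave 4 and 5 below an unadjusted 0.05. With edgeR that number was 3 or 4 when a WT library or sKO library 1 was left out. It was 1 without sKO library 2, where Gja1 alone remained, and 1 without sKO library 3, where F11r alone remained.

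Estimates lay above 0 for all 9 genes with the usual library scaling (TMM, trimmed mean of M-values), though those of Tjp1 and Espn were within 0.01 log2 units of 0 and changed sign under other scalings. Estimates lay above 0 for 55.3% of tested genes. The median log2 fold change of the 9 was 0.27, against 0.03 for all genes tested. For 5 genes, Cldn11, Ocln, F11r, Gja1 and Cdh2, every sKO library was above every WT library, while 9.58% of tested genes had this order. The same count was 5 without sKO library 1, where 11.4% of tested genes had that order.

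**Figure D1:**
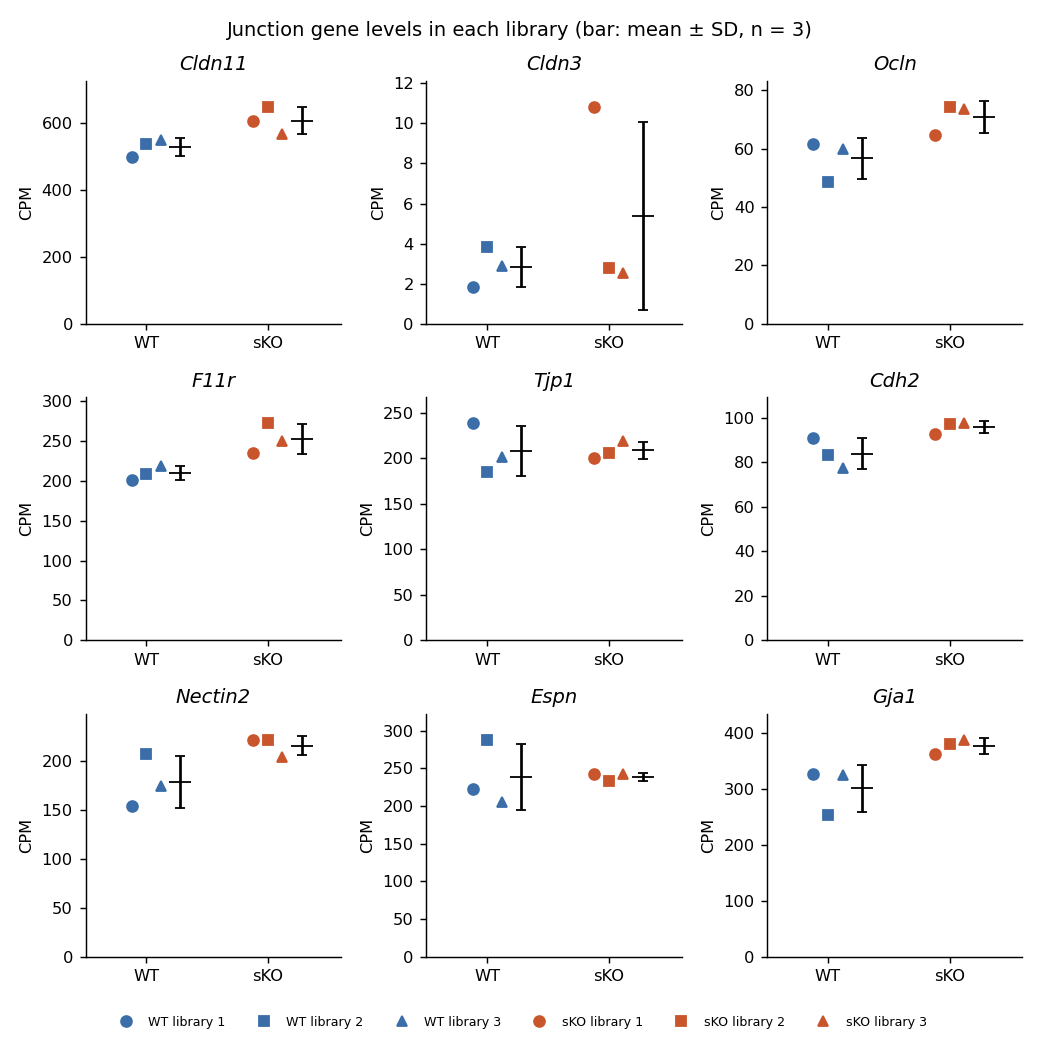
Level of each junction gene in CPM (y axes from 0) in the 3 WT and 3 sKO libraries; symbols are libraries and black bars the mean ± SD (n = 3). Cldn11, Ocln, F11r, Gja1 and Cdh2 show no overlap between groups, and Cldn3 is high in sKO library 1 alone, at 10.8 CPM.

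Among the tight junction proteins that span the membrane, Cldn11 was the most abundant. It encodes the claudin that Sertoli cells need to form tight junction strands, and mice without it are sterile. Libraries 1 to 3 of WT measured 500, 538 and 550 CPM of Cldn11, and those of sKO measured 605, 648 and 569 CPM. The sKO libraries all lay above the WT libraries, with sKO library 3 the closest to them. The log2 fold change was 0.20 (SE 0.09, 95% interval -0.0053 to 0.40, edgeR adjusted p = 0.384), so the upper end of the interval corresponds to a level 1.32-fold that of WT.

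Ocln encodes occludin, a tight junction protein of the rodent Sertoli cell barrier that is not needed for strands to form. It measured 61.5, 48.7 and 59.8 CPM in WT and 64.5, 74.2 and 73.7 CPM in sKO. WT library 2 was the lowest, and the nearest libraries of the groups, WT 1 and sKO 1, were close. Its log2 fold change was 0.32 (SE 0.12, 95% interval 0.07 to 0.58, edgeR adjusted p = 0.236).

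F11r encodes the junctional adhesion molecule JAM-A, an immunoglobulin-family protein of tight junctions. It measured 202, 208 and 219 CPM in WT and 235, 272 and 250 CPM in sKO. The groups did not overlap, and the WT libraries were within a narrow range. F11r had the smallest p of the 9 genes, with a log2 fold change of 0.27 (SE 0.09, 95% interval 0.07 to 0.47, edgeR adjusted p = 0.203). Its relatives Jam2 and Jam3 had log2 fold changes of 0.13 and 0.10 and adjusted p of 0.612 and 0.648 by edgeR.

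Cldn3 differed from the other 8 genes in level and in pattern. It encodes a claudin that appears at newly assembled junctions as spermatocytes cross the barrier and that depends on androgen in Sertoli cells. At this age it was scarce, with 33, 65 and 46 counts in WT libraries 1 to 3, or 1.85, 3.83 and 2.86 CPM. The sKO libraries held 180, 46 and 46 counts, or 10.8, 2.79 and 2.53 CPM. Library 1 was thus the only sKO library outside the WT range. The log2 fold change was 0.91 with a wide error (SE 0.59, 95% interval -0.46 to 2.29, edgeR adjusted p = 0.553), and it was -0.12 without sKO library 1 (edgeR adjusted p = 0.963).

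The library with high Cldn3 was the library with high duct transcripts. Cldn3 in sKO library 1 was 3.88-fold the median of the other 5 libraries, and the ratio of Cldn4, a claudin of many simple epithelia, was 3.77. For Krt8 and Cdh16, which encode a keratin of simple epithelia and a cadherin of kidney and duct epithelium, the ratios were 9.84 and 18.5. Not all such genes were high: the ratio was 1.02 for the claudin gene Cldn7, which was not highest in sKO library 1, and 1.29 for Epcam. The duct marker Lcn8 had a count of 0 there and at most 6 in the other libraries. Crisp1, an epididymal secretory protein, reached 89.7 CPM there and at most 10.7 CPM in the other libraries. Among the 8 other junction genes the same ratio ran from 0.973 for Tjp1 to 1.11 for Gja1, and none of them was highest in that library. Cldn3 in sKO libraries 2 and 3, where the duct sum was in or close to the WT range, was within the WT range.

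**Figure D2:**
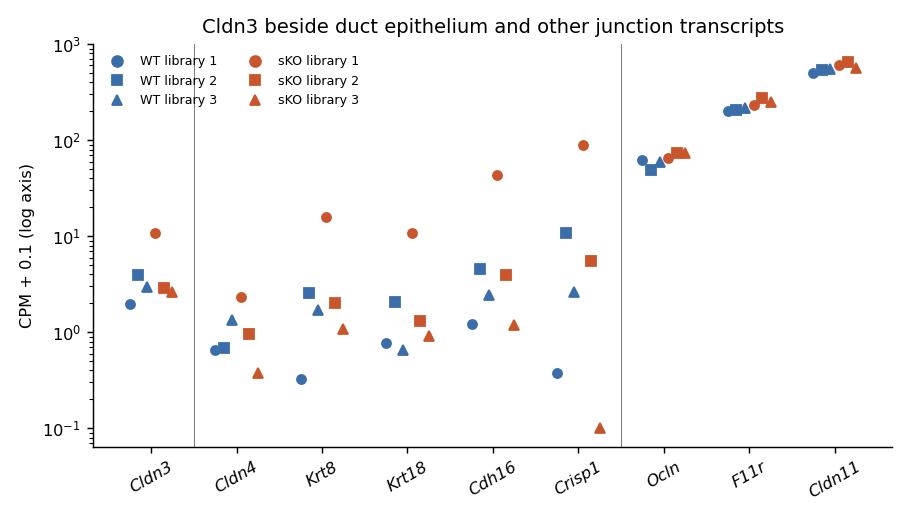
Level of Cldn3, of 5 epithelial transcripts (Cldn4, Krt8, Krt18, Cdh16, Crisp1) and of 3 other junction genes in each library, as CPM plus an offset of 0.1 on a log axis; symbols are libraries, blue WT and orange sKO. sKO library 1 is the highest for Cldn3 and for all 5 epithelial transcripts, and is among the others for Ocln, F11r and Cldn11. Cldn7, not shown, was not highest in that library.

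Tjp1 encodes the zonula occludens scaffold under the junction membrane. It measured 238, 184 and 202 CPM in WT and 201, 206 and 219 CPM in sKO. The sKO libraries all lay inside the WT range. Its log2 fold change was 0.0045 (SE 0.11, edgeR adjusted p = 0.991), and the 95% interval, -0.23 to 0.24, includes the estimates of Cldn11 and Cdh2.

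Cdh2, Nectin2 and Espn belong to the basal ectoplasmic specialization, and their intervals overlap. Cdh2 encodes N-cadherin, the adherens-type cadherin between Sertoli cells and between Sertoli and germ cells. It measured 90.9, 83.2 and 77.1 CPM in WT and 92.8, 97.0 and 97.4 CPM in sKO, with little space between WT library 1 and sKO library 1. The log2 fold change was 0.19 (SE 0.09, 95% interval -0.01 to 0.40, edgeR adjusted p = 0.409).

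Nectin2 encodes the Sertoli-side nectin that pairs with nectin-3 of spermatids. Nectin2 measured 154, 206 and 174 CPM in WT and 220, 221 and 204 CPM in sKO. The groups overlapped narrowly, since WT library 2 exceeded sKO library 3. Its log2 fold change was 0.27 (SE 0.11, 95% interval 0.03 to 0.52, edgeR adjusted p = 0.309). Nectin3, chosen after its values were seen, stood at 46.9 ± 10.4 CPM in the WT and 37.7 ± 3.04 CPM in the sKO libraries (SD, n = 3 each; log2 fold change -0.32, adjusted p = 0.397 by edgeR). Which cells held the Nectin3 transcript cannot be told from such bulk samples.

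Espn encodes espin, which bundles the actin filaments of the ectoplasmic specialization. It measured 222, 288 and 205 CPM in WT and 242, 233 and 242 CPM in sKO. The WT libraries spread widely around the closely spaced sKO libraries. Espn had a log2 fold change of 0.0033 (SE 0.12, 95% interval -0.27 to 0.27, edgeR adjusted p = 0.994).

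Gja1, the main connexin gene of Sertoli cells, whose deletion there arrests spermatogenesis, represents the gap junctions of the barrier. It measured 327, 254 and 325 CPM in WT and 362, 382 and 389 CPM in sKO. The sKO libraries lay above the WT libraries, of which library 2 was low. Its log2 fold change was 0.32 (SE 0.11, 95% interval 0.08 to 0.56, edgeR adjusted p = 0.211), a level 1.25-fold that of WT. WT library 2 was also the lowest WT library for Ocln and Tjp1 and the highest for Espn and Nectin2, so the WT libraries did not share a common order across the 9 genes.

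**Figure D3:**
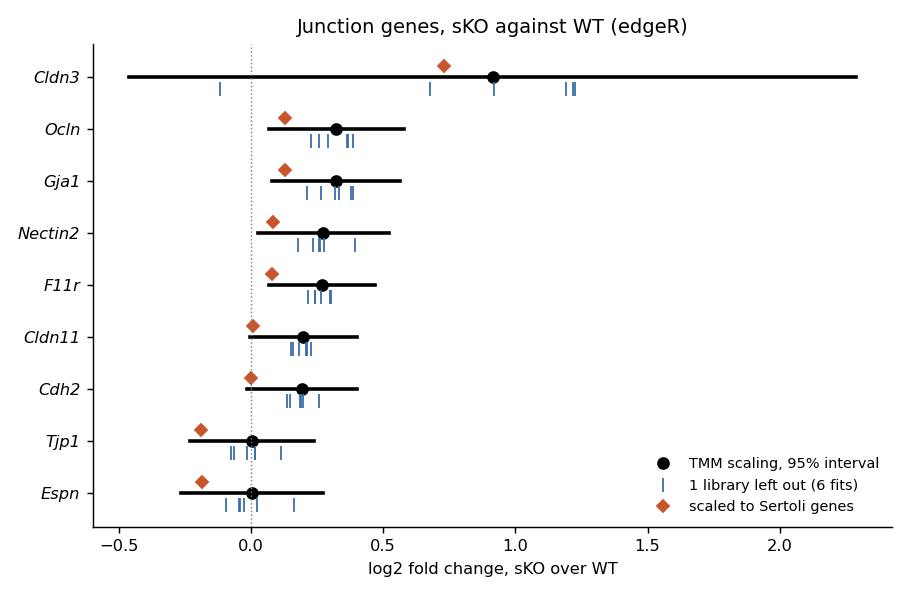
Log2 fold change of each junction gene, sKO over WT (x axis): black points and lines give the edgeR estimate with its 95% interval, blue ticks the 6 fits with 1 library left out, and orange diamonds the estimate with libraries scaled to Sertoli genes. Intervals of Ocln, Gja1, Nectin2 and F11r lie above 0 before adjustment, and with Sertoli scaling Cldn11 and Cdh2 sit at 0.0060 and -0.0017.

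Permuting the 3 against 3 libraries exactly, two-sided, can give no p below 0.1, and it gave p = 0.1 for each of the 5 genes without overlap. The exact p was 0.2 for Nectin2, 0.7 for Cldn3, 0.9 for Tjp1 and 1 for Espn.

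The levels were also expressed relative to Sertoli cell transcripts. Each library was divided by the geometric mean count of the 23 Sertoli markers, which include none of the 9 genes. This scaling moved the median log2 fold change of all tested genes by -0.19, from 0.03 to -0.16. With it the median of the 9 genes was 0.08 and edgeR called 0 of them, with 0 at an unadjusted p under 0.05. Every sKO library was above every WT library for 0 of the 9 genes, against 1.54% of all tested genes.

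Cldn11 was nearly constant on that scale. Its count was 370%, 370% and 376% of the Sertoli geometric mean in the WT libraries and 372%, 379% and 370% in the sKO libraries. The group means were 372 ± 3.50% and 374 ± 4.72% (SD, n = 3 each), and the exact permutation p, two-sided, was 0.7. The coefficient of variation of Cldn11 over the 6 libraries was 1.02% on the Sertoli scale and 9.20% with TMM scaling. Among the 11055 tested genes that averaged at least 10 CPM this was the smallest on the Sertoli scale, while Cldn11 ranked 4019 with TMM scaling; this ranking was chosen after the values were seen.

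F11r had a coefficient of variation of 5.18% on the Sertoli scale, the next lowest of the 9 genes, and those of Nectin2 and Cdh2 were 8.17% and 8.94%. Ocln, Gja1, Tjp1 and Espn varied more, from 12.1% to 15.0%. Tjp1 was 177%, 127% and 138% of the Sertoli mean in WT and 124%, 121% and 142% in sKO. The Tjp1 estimate, near 0 with TMM scaling, was -0.19 log2 units on this scale (edgeR adjusted p = 0.481), as the shift of all genes alone would give. Espn behaved similarly, at -0.19 (edgeR adjusted p = 0.481), with 165%, 198% and 140% in WT and 149%, 136% and 158% in sKO. For both genes the groups overlapped.

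**Figure D4:**
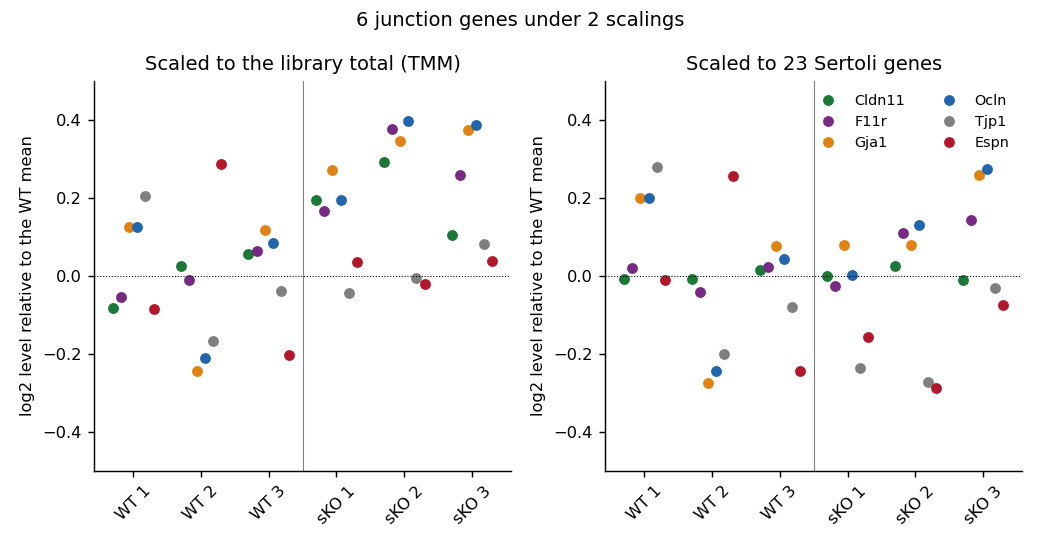
Log2 level of 6 junction genes relative to the WT mean (y axis) in each library (x axis), with libraries scaled to their total by TMM (left) and to the geometric mean of 23 Sertoli genes (right); points are single libraries and colours are genes. On the right Cldn11 stays at the line in all 6 libraries, while Ocln, Gja1, Tjp1 and Espn scatter.

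Levels of different genes can be set side by side only per length, here as CPM per kilobase of merged exons in GENCODE M21 (GRCm38). In WT, Cldn11 led with 283 ± 14.1, F11r followed with 78.7 ± 3.29 and Nectin2 with 51.0 ± 7.60 (SD, n = 3 each). Gja1, Espn and Tjp1 came next at 29.5 ± 4.10, 28.8 ± 5.30 and 26.6 ± 3.53, with overlapping ranges, so by this length these neighbours did not differ beyond their spread. Ocln had 13.4 ± 1.65 and Cdh2 10.4 ± 0.857, and Cldn3 was last at 2.26 ± 0.786. The order of the 9 genes was the same in sKO. Gene lengths carry their own uncertainty. With the longest single transcript Gja1 would be at 77.7, Nectin2 at 65.1 and Espn at 51.7 CPM per kilobase in WT. Cdh2 would be at 17.3 and Ocln at 14.0. This places the mean of Gja1 above that of Nectin2 and Cdh2 above Ocln. By that length the WT ranges of Gja1 (65.2 to 84.2), Espn (44.4 to 62.4) and Tjp1 (26.2 to 33.8) did not overlap. The Nectin2 range (56.2 to 75.4) overlapped those of Gja1 and Espn.

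By this measure Cldn11 made up 53.1%, 54.0% and 55.0% of the summed length-scaled level of the 9 genes in WT and 53.9%, 54.5% and 52.1% in sKO. Its part in the mixture, which does not depend on the scaling of libraries but does depend on the gene lengths used, overlapped between the groups. Tjp1 made up 5.11 ± 0.851% in WT and 4.41 ± 0.348% in sKO, and Espn 5.51 ± 0.962% and 4.78 ± 0.309% (SD, n = 3 each). Cldn3 made up 0.571% or less in every library except sKO library 1, where it was 1.43%.

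**Figure D5:**
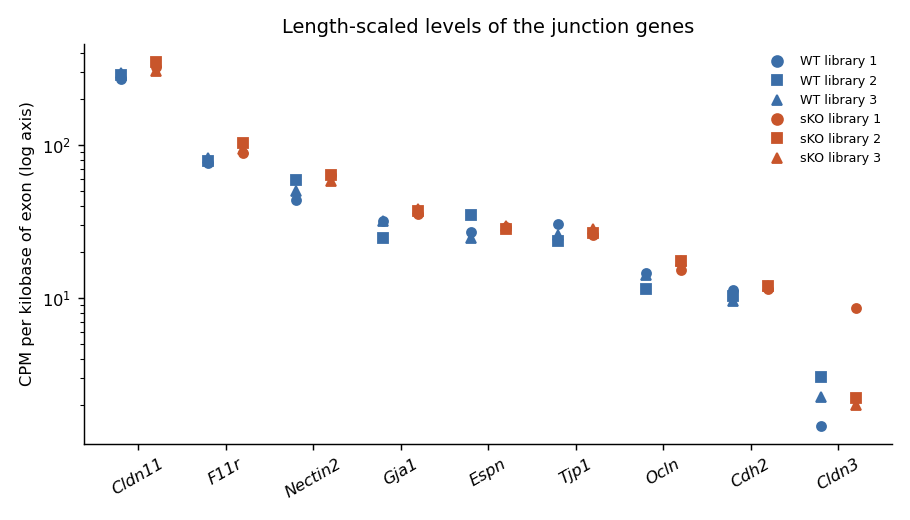
Length-scaled level of the 9 junction genes (CPM per kilobase of merged exons, log axis), ordered by the WT mean; symbols are libraries, blue WT and orange sKO. Cldn11 is highest and Cldn3 lowest in all 6 libraries, and Gja1, Espn and Tjp1 overlap in WT.

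Other genes of the same structures were examined as lists. Of 26 further tight junction genes 23 were tested, and edgeR called 0 in either direction. Before adjustment, 4 were higher and 1 was lower at p under 0.05, where 5.06% of all tested genes were higher and 8.54% lower. The median log2 fold change was 0.12, with 16 estimates above 0. Cgn, which encodes the cytoplasmic plaque protein cingulin, stood at 383 ± 17.0 CPM in the WT and 439 ± 6.91 CPM in the sKO libraries (SD, n = 3 each; adjusted p = 0.330 by edgeR). Cxadr, a virus receptor that doubles as a junction adhesion protein, stood at 26.3 ± 3.91 CPM in the WT and 34.0 ± 3.06 CPM in the sKO libraries (SD, n = 3 each; adjusted p = 0.252 by edgeR). Amotl2, an angiomotin family protein, had a log2 fold change of 0.34 and the polarity scaffold Pals1 one of -0.35, and adjusted p of 0.233 and 0.244 by edgeR. Cldn5, also a gene of blood vessel endothelium, stood at 11.2 ± 3.32 CPM in the WT and 11.1 ± 0.775 CPM in the sKO libraries (SD, n = 3 each).

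In the list of adherens and ectoplasmic specialization genes, 26 of 28 estimates were above 0, with a median of 0.18, and 0 were called by edgeR. There were 4 higher and 0 lower at an unadjusted p under 0.05, against 5.06% and 8.54% of all tested genes. Every sKO library exceeded every WT library for 8 of the 28, and for 9.58% of all tested genes. Without the low-count filter edgeR called 1 of the 28 higher, where it called 154 of 35085 genes higher. Vcl, the actin linker vinculin, measured 313, 306 and 333 CPM in WT and 375, 382 and 372 CPM in sKO (log2 fold change 0.25, edgeR adjusted p = 0.210). Itga6, the laminin-binding integrin alpha chain found at the ectoplasmic specialization, measured 103, 92.4 and 115 CPM in WT and 128, 125 and 130 CPM in sKO (log2 fold change 0.31, edgeR adjusted p = 0.181). Dbn1, the actin-binding drebrin, had a log2 fold change of 0.33. Pls3, the actin bundler plastin, had one of 0.49, with edgeR adjusted p of 0.358 for Dbn1 and 0.271 for Pls3. Pls3 was highest in sKO library 1, at 92.3 CPM.

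Of 13 gap junction and desmosome genes edgeR called 0, with 0 at an unadjusted p under 0.05 and a median of 0.14. Estimates were above 0 for 9 and below 0 for 4. Panx1, a pannexin channel gene, stood at 15.5 ± 2.31 CPM in the WT and 18.3 ± 1.80 CPM in the sKO libraries (SD, n = 3 each). Dsg2, a desmosomal cadherin gene, had a log2 fold change of 0.71 (edgeR adjusted p = 0.589), and its level in sKO library 1 was 3.59-fold the median of the other libraries.

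Among 24 regulators of the barrier 23 were tested and 0 called by edgeR, with a median of 0.03. At an unadjusted p under 0.05, 4 were higher and 1 lower, against 5.06% and 8.54% of all tested genes. Every sKO library was above every WT library for 3 of the 23 and below every WT library for 2, against 9.58% and 10.7% of all tested genes. Tgfb3, a cytokine that opens Sertoli cell junctions, measured 59.9, 63.0 and 64.3 CPM in WT and 76.1, 83.7 and 73.5 CPM in sKO, with no overlap (log2 fold change 0.32, SE 0.09, edgeR adjusted p = 0.150). Il1a, another such cytokine, was scarce, at 1.35, 1.47 and 1.68 CPM in WT and 0.901, 0.545 and 0.935 CPM in sKO (log2 fold change -0.91, edgeR adjusted p = 0.259). All its sKO libraries lay below its WT libraries. The kinase genes Src and Map4k4 had log2 fold changes of 0.32 and 0.21, and adjusted p of 0.307 and 0.330 by edgeR.

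Androgen-linked Sertoli genes were included because Cldn3 depends on androgen. edgeR called 0 of 8, with a median of 0.10. At an unadjusted p under 0.05, 1 was higher and 0 lower, against 5.06% and 8.54% of all tested genes. Rhox5, a homeobox gene driven by androgen in Sertoli cells, stood at 38.1 ± 0.734 CPM in the WT and 39.6 ± 6.76 CPM in the sKO libraries (SD, n = 3 each; adjusted p = 0.892 by edgeR).

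Cell type lists gave the setting of these values. The 23 Sertoli markers had a median log2 fold change of 0.23 with 22 estimates above 0, and edgeR called 0. DESeq2 called 1 of them higher, where it called 56 of 35085 genes higher. At an unadjusted p under 0.05 by edgeR, 10 had higher estimates, against 5.06% of all tested genes. That number was 3 without sKO library 1 or sKO library 2 and 5 without WT library 1. The junction genes' median of 0.27 lay beside the Sertoli median of 0.23. Without sKO library 1 the junction and Sertoli medians were 0.20 and 0.20. Without both libraries numbered 1 they were 0.15 and 0.13. The Sertoli genes Wt1 and Sox9 had log2 fold changes of 0.26 and 0.26, and Mro, the Sertoli gene with the smallest p, had one of 0.33 (edgeR adjusted p = 0.113). By contrast, 14 of 14 tested spermatocyte markers had estimates below 0, with a median of -0.87. edgeR called 5 of them lower, against 1.27% of all tested genes. At an unadjusted p under 0.05, 9 of them were lower, against 8.54% of all tested genes. limma-voom called 0 (11 before adjustment), DESeq2 called 9 of 15, and edgeR called 0 with the replicate number as a block and 0 without WT library 2, sKO library 1 or sKO library 2 (9 before adjustment in each of these 4 fits). With another library left out, the calls were 3 without WT library 1, 6 without WT library 3 and 8 without sKO library 3. The main edgeR fit made no call among the tested markers of spermatogonia (12), Leydig cells (7), peritubular myoid cells (6), endothelium (8), macrophages (6) or duct epithelium (11). Without the low-count filter edgeR called 1 spermatogonial marker lower, where it called 992 of 35085 genes lower. In the main fit 1, 2, 0, 0, 0 and 0 markers of these lists had higher estimates with an unadjusted p under 0.05, and 2 spermatogonial markers were lower. The medians of the lists were 0.11, 0.31, 0.38, 0.22, 0.38 and 1.93. Several of these medians turned on sKO library 1. Relative to the WT mean, the myoid markers had a median of 0.69, 0.23 and -0.02 log2 units in sKO libraries 1 to 3, the endothelial markers 0.37, 0.20 and -0.07, and the macrophage markers 0.59, 0.54 and -0.04. In sKO library 3 all 3 lists were within the range of the WT libraries. Duct markers had 2.97, 0.24 and -0.45, and only library 1 was outside the WT range. Without sKO library 1 the median log2 fold changes were 0.14 for Leydig, 0.04 for myoid, 0.01 for endothelial, 0.22 for macrophage and -0.13 for duct markers. The part of these other cell types in the junction gene values was not tested.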

How the data were processed

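RNA was sequenced from 3 WT and 3 sKO testis samples. The authors deposited raw read counts per gene symbol, 1 column per sample; the columns named con and scKO were read as WT and sKO and matched by replicate number. Per the submitters' processing notes, the tools were Trim Galore, HISAT2 and featureCounts, on build mm39; their versions, the annotation and the strand setting are not stated in those sources. Without strand, reads of overlapping genes cannot be told apart: in GENCODE M21, antisense genes share 40 exon bases (3.18%) of Cldn3 and 135 (3.86%) of Nectin2, and no other member shares exon bases.

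Counts were filtered with filterByExpr, scaled by TMM and tested with edgeR 4.0.16 (robust quasi-likelihood F test, no covariates; R 4.3.3), with Benjamini-Hochberg adjustment over 18860 genes. Standard errors derive from F, and intervals are 95%. DESeq2 1.42.0 and limma-voom (limma 3.58.1), other scalings, no filter, a replicate block and left-out libraries were alternatives. The scripts were tested on simulated counts. Libraries of a group differed by 4.81 to 22.7 chi-square per degree of freedom, so none was the same library sequenced again. Whether libraries shared an RNA sample or an animal was not tested. Chromosome positions, lengths and promoters come from GRCm38, not the mm39 build of the counts.

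The members and lists were chosen with earlier results of these data known. Named genes are the 9 members, up to 4 genes with the smallest p of each list with a mean of at least 1 CPM, and a few junction and marker genes given in advance (among them Cldn5, Jam2, Jam3 and Rhox5); a part of them is named, some results that the rule covers are not reported here, and genes outside that rule are marked or were named for their level in sKO library 1.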

Additional observations from a re-analysis of the deposited data

How the results depend on the processing

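The call of 0 junction genes held in all 13 alternatives, in both directions; the smallest adjusted p over these was 0.0910, for Gja1 without the low-count filter. Cldn11, Ocln, F11r, Gja1 and Nectin2 kept estimates above 0 in all 13. Scaled to Sertoli genes, Cdh2 was -0.0017, Tjp1 -0.19 and Espn -0.19, and the number of junction genes with every sKO library above every WT library went from 5 to 0. Tjp1 and Espn were -0.0081 and -0.010 with DESeq2, -0.012 and -0.014 with DESeq2-type (RLE) size factors in edgeR, and -0.0013 and -0.0056 without the filter. Leaving out 1 library gave -0.075 to 0.11 for Tjp1, -0.093 to 0.16 for Espn and -0.12 to 1.23 for Cldn3, which was below 0 only without sKO library 1. Tjp1 was below 0 without WT library 2, WT library 3 or sKO library 3, and Espn without WT library 1, WT library 3, sKO library 1 or sKO library 3. The number of junction genes without overlap, 5, was 5 to 7 with 1 library left out, where 11.4% to 16.6% of tested genes had that order, against 9.58% with all 6; it was 7 without WT library 2 and 6 without sKO library 3, with 16.6% of genes in both. Without both libraries numbered 1, Cldn3 was -0.35 and Espn -0.069. Over all genes, calls lower and higher in sKO were 240 and 6 with edgeR, 711 and 56 with DESeq2, 0 and 0 with limma-voom (1598 and 932 at an unadjusted p under 0.05), 492 and 2 scaled to Sertoli genes and 992 and 154 without the filter. They were 155 and 5 without both libraries numbered 1, and 0 to 624 and 0 to 31 with 1 library left out. The counts of 0 came without WT library 2, sKO library 1 or sKO library 2, where 1662, 1410 and 1221 genes were lower before adjustment at p under 0.05 and 1102, 431 and 503 were higher. With the replicate number as a block, calls were 21 and 0 (1324 and 605 at an unadjusted p under 0.05); same-numbered libraries had deviations that correlated at -0.34, 0.12 and -0.28, so the numbers were not taken as pairs. The depth limits Cldn3 most, with 33 to 65 counts in 5 of the 6 libraries.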

Other observations

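Genes whose pattern over the 6 libraries was most like that of Cldn11 were found by the root mean square difference of centred log2 CPM, among tested genes averaging at least 10 CPM. The nearest were Ptgr1 (0.0145), an enzyme that reduces prostaglandin and leukotriene intermediates, Plce1 (0.0241), a phospholipase C gene, and Atp9b (0.0242), a putative lipid flippase gene; the spread of Cldn11 itself was 0.120 on this scale. Ptgr1 stood at 101, 108 and 111 CPM in WT and 126, 132 and 117 CPM in sKO.

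The genes nearest to Cldn3 were Scd1 (0.188), Wfdc8 (0.331) and Gpx3 (0.344), against a spread of Cldn3 itself of 0.725. Scd1 encodes a fatty acid desaturase and Gpx3 a secreted glutathione peroxidase. All 3 were highest in sKO library 1, at 39.3, 41.1 and 36.4 CPM, and their edgeR adjusted p for sKO against WT were 0.739, 0.497 and 0.567.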
